A study of Bos taurus with 28 samples.

Results

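The comparison described here set the endometrium of heifers inseminated with semen of low-fertility (LF) bulls against that of control (CTRL) heifers that received no semen. Its members are all heifers with either label, 10 LF and 8 CTRL, which make 18 of the 28 heifers in the series, and it covers every gene that was counted. Both groups were cross-bred heifers whose cycles had been synchronised in the same way, with an intravaginal progesterone device, gonadotrophin-releasing hormone and prostaglandin F2 alpha. The LF semen came frozen-thawed from 5 bulls, with 2 heifers per bull, and LF tissue was taken 12 h after insemination. The CTRL heifers were left without an insemination of any kind, so semen, extender and the passage of the catheter cannot be told apart as parts of the treatment.

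A single punch of intercaruncular uterus from each heifer, with the endometrium cut away from the myometrium by blade, was used for polyA RNA sequencing. The work ran in 2 study replicates with different heifers in each, of which LF1 to LF5 and CTRL1 to CTRL4 made up the first. Every LF bull was used in 1 heifer of each study replicate. LF held 5 Charolais crosses and 3 Limousin crosses, and CTRL held 1 and 4 of these. Both held 1 Aberdeen angus and 1 Simmental cross, and CTRL 1 Saler cross. Total counts lay between 16039311 and 25633259 in LF and between 15458403 and 22834975 in CTRL, so the groups were of like depth. No pair of heifers within a group had counts as alike as repeat sequencing of 1 library would give (lowest chi-square per degree of freedom 18.4 over 73 pairs).

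After insemination the endometrium meets sperm and seminal plasma, and a short-lived inflammation with entry of neutrophils follows that clears sperm and debris. Eicosanoids take part in this: phospholipase A2 frees arachidonic acid, cyclooxygenases and terminal synthases turn it into prostaglandins, and 5-lipoxygenase followed by leukotriene A4 hydrolase turns it into leukotriene B4, a strong attractant of neutrophils. Cytokines, complement, interferon-stimulated genes and antigen presentation are further arms of the same response, while smooth muscle lies next to the endometrium in the uterine wall.

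Few genes separated LF from CTRL. LTA4H, which encodes leukotriene A4 hydrolase, and SH3D21, which encodes a protein with SH3 domains, were the 2 genes that rose in LF by DESeq2, which gave 19179 genes an adjusted p and thus called 0.0104% of them. The quasi-likelihood test of edgeR, the main test here, called 0 of 14849 genes (0%) at Benjamini-Hochberg adjusted p under 0.05, and its smallest adjusted p of 0.874 was shared by 2209 genes. At an unadjusted p under 0.05 edgeR picked 839 of its 14849 genes (5.65%). DESeq2 picked 1157 of the 19181 genes it was fitted to without a filter on low counts, so the 2 numbers are not like for like. Of the 839, 437 were higher in LF (2.94%) and 402 lower (2.71%). These shares are close to what a threshold of 0.05 passes in genes with no difference, so an unadjusted p is used below only to describe a gene and is not a call. The median size of a log2 fold change (log2FC, LF minus CTRL) was 0.15 and the median standard error 0.22. A gene without a call may still differ, since the error of most genes was as large as the difference measured.

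The 10 LF heifers had 68.0 to 97.8 CPM of LTA4H, where CPM are counts corrected for sequencing depth by TMM factors, with a median of 78.5. The 8 CTRL heifers had 46.6 to 67.5 CPM, with a median of 56.1. Every LF heifer was thus above every CTRL heifer, by little between LF6 and CTRL7, and no other tested gene separated the groups in this way (0.00673% with LF higher, 0% with LF lower). The mean was 78.9 ± 8.66 CPM in LF (SD, n = 10) and 56.9 ± 7.75 in CTRL (SD, n = 8), a log2FC of 0.47 (SE 0.096, 95% interval 0.27 to 0.67) or 1.39-fold. The adjusted p was 0.874 in edgeR and 0.0188 in DESeq2. The difference was 0.60 in study replicate 1 and 0.36 in study replicate 2.

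SH3D21 was measured at 7.40 to 13.5 CPM in LF (median 10.6) and at 4.82 to 8.76 in CTRL (median 6.66). LF8 was the only LF heifer below the highest CTRL heifer. The log2FC was 0.66 (SE 0.15, 95% interval 0.35 to 0.97), with adjusted p of 0.874 in edgeR and 0.0188 in DESeq2, and it was 0.52 and 0.82 in the study replicates. Both calls depended on single heifers. When each heifer was left out in turn, DESeq2 called LTA4H in 14 of 18 fits, losing it without LF4, LF5, CTRL4 or CTRL6 (adjusted p up to 0.123). It called SH3D21 in 9 of 18, losing it without LF2, LF4, LF5, LF6, LF9, CTRL4, CTRL6, CTRL7 or CTRL8 (adjusted p up to 0.123). The log2FC itself moved little, from 0.43 to 0.51 for LTA4H and from 0.59 to 0.72 for SH3D21.

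Libraries that stood apart did so in both groups. The first principal component of the 500 most variable genes held 34.4% of the variance, and 3 LF heifers (LF1, LF7, LF8) and 2 CTRL heifers (CTRL4, CTRL5) lay at scores of 17.0 to 26.8 on it, against -15.3 to 12.5 for the other heifers. LF3, at 12.5, lay nearer to CTRL4, at 17.0, than to the next heifer below it, CTRL8, at 3.94. The choice of these 5 heifers, and every fit without them, was made after seeing the data. The same 5 had the lowest TMM normalization factors, 0.848 to 0.925 against 0.963 to 1.10. The mean score of LF was 4.16 above that of CTRL, with SDs of 17.99 and 14.99 (2-sided exact permutation p = 0.618 over 43758 splits), and the nearest neighbour of 10 of the 18 heifers had the same treatment. Among named genes, FBXO32, which encodes a muscle-associated ubiquitin ligase subunit, had the largest weight on this component and was low where scores were high. Without the 5 heifers edgeR still called 0 genes, with 1046 (7.05%) at unadjusted p under 0.05, whereas DESeq2 called 7, among them SH3D21, MST1R, RND3 and TIPARP but not LTA4H (log2FC 0.41, DESeq2 adjusted p = 0.296). What set these libraries apart was not tested. The second component held 27.4% of the variance, with LF heifers at its high end and CTRL heifers at its low end. A difference between the groups on it was not tested.

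**Figure D1:**
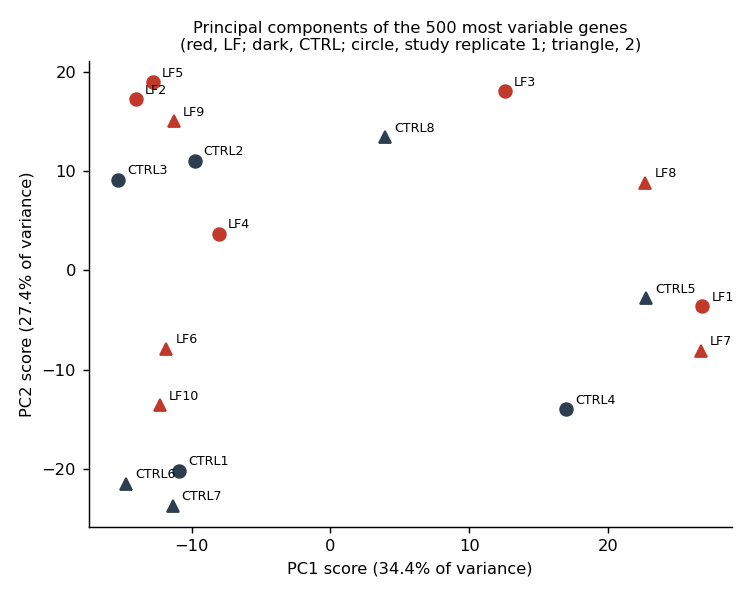
Principal component scores of the 18 heifers from variance stabilised counts, PC1 on the horizontal and PC2 on the vertical axis, with LF in red, CTRL in dark blue, study replicate 1 as circles and study replicate 2 as triangles. LF1, LF7, LF8, CTRL4 and CTRL5 lie to the right. LF and CTRL heifers mix along PC1 and in the middle of PC2.

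Gene names were at hand for 1522 of the 24596 gene IDs, most of them from rows of a supplementary table that had been sorted by p-value for this same comparison. Of the 1497 named genes tested, 668 (44.6%) had an unadjusted p under 0.05, 339 (22.6%) with LF higher and 329 (22%) with LF lower, against 1.28% of the 13352 genes without a name (0.734% higher, 0.547% lower). Counts of named genes below therefore have to be read against 44.6% and not against 5.65%, and they say nothing of the members of a list that carry no name. Picking by p also favours a large log2FC, so medians of named members cannot be set against those over all genes. The direction of a named gene was not part of how it came to be named. A small p over all heifers does make the same sign in both study replicates likely. Such agreement among named genes is therefore only described below and is not separate support. Over all named genes, 733 had a log2FC above 0 and 764 below. The smooth muscle covariate used below is the mean of 9 named markers, so it comes from the same naming. Its mean log2 CPM was 6.03 in LF and 7.10 in CTRL. As the covariate itself differed between the groups, a log2FC that shrinks or turns with it cannot show the part of smooth muscle.

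KLK10, which encodes a secreted serine protease of the kallikrein family, lay between 7.01 and 17.8 CPM in LF (median 12.5) and between 2.68 and 7.98 in CTRL (median 6.25). Only LF9 and LF10 fell within the CTRL range, and the log2FC was 1.02 (SE 0.24). MISP, an actin-bundling protein of the cell cortex and spindle, had 8.34 to 21.6 CPM in LF and 2.74 to 11.2 in CTRL, a log2FC of 1.10 (SE 0.27) with 7 of 10 LF heifers above every CTRL heifer. For AIM1L the medians were 6.63 and 3.77 CPM (log2FC 0.77, SE 0.18). All 3 were above the CTRL median in each of the 10 LF heifers.

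MST1R encodes the receptor tyrosine kinase for macrophage-stimulating protein. It was at 4.22 to 11.5 CPM in LF and 4.12 to 6.71 in CTRL (log2FC 0.67, SE 0.18), and LF7 was the only LF heifer within the CTRL range. APOA1, the main protein of high-density lipoprotein, had 24.6 to 90.0 CPM in LF (median 42.3) and 19.9 to 36.5 in CTRL (median 26.0), a log2FC of 0.82 (SE 0.22). RNPEP, an aminopeptidase of the same family as LTA4H, had a log2FC of 0.47 (SE 0.13) with all 10 LF heifers above the CTRL median. The adaptor HSH2D (1.11, SE 0.31) and the keratin KRT9 (1.59, SE 0.42) complete the 10 named genes with the smallest p among those higher in LF, both at median levels under 2 CPM. The edgeR adjusted p of each of these genes was above 0.05.

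Among genes that were lower in LF, RND3 had the smallest p. Its 10 LF values of 51.4 to 124 CPM (median 76.6) met CTRL values of 78.0 to 177 (median 133). All LF heifers lay below the CTRL median and 5 below every CTRL heifer, with a log2FC of -0.74 (SE 0.17) that was -1.10 in study replicate 1 and -0.37 in study replicate 2. ADAMTSL4, a secreted protein of fibrillin microfibrils, was at 18.5 to 47.5 CPM in LF (median 25.2) and 28.7 to 132 in CTRL (median 51.8), a log2FC of -1.17 (SE 0.29). The palmitoyltransferase ZDHHC14 (log2FC -0.51, SE 0.13) and the ADP-ribosyltransferase TIPARP (log2FC -0.79, SE 0.20) were also below the CTRL median in all 10 LF heifers.

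ADAM9, a membrane-bound metalloprotease, had 9 of 10 LF heifers below every CTRL heifer (62.6 to 116 CPM in LF, 89.5 to 204 in CTRL), and its log2FC was -0.59 in both study replicates. LDLRAD4, an inhibitor of TGF-beta signalling, had a log2FC of -0.95 (SE 0.27), the fibroblast growth factor receptor FGFR1 one of -0.86 (SE 0.25), PHF21B one of -1.63 (SE 0.46), C9orf172 one of -1.48 (SE 0.44) and TMEM47 one of -0.75 (SE 0.23). None of these genes was called by edgeR or by DESeq2 with all heifers, and their groups overlapped.

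**Figure D2:**
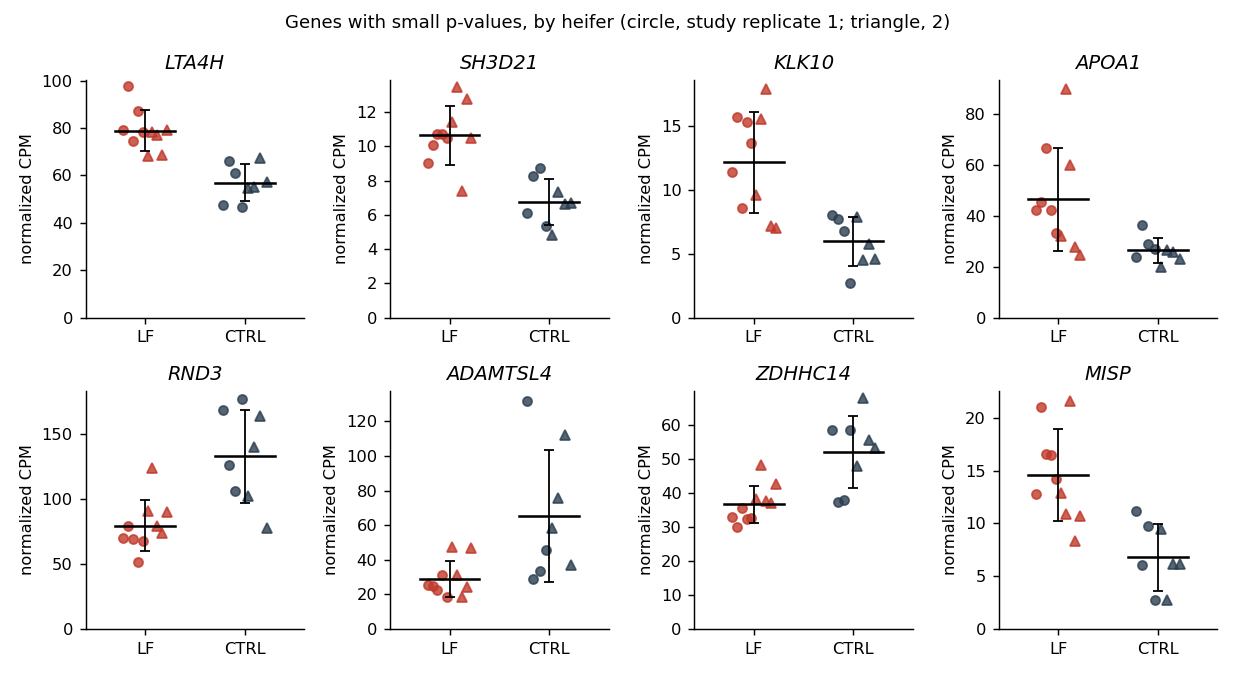
Normalized CPM of LTA4H, SH3D21, KLK10, APOA1, RND3, ADAMTSL4, ZDHHC14 and MISP in every heifer, with the mean as a line and the SD as a bar, circles for study replicate 1 and triangles for study replicate 2. All 10 LF heifers are above all 8 CTRL heifers for LTA4H, and the groups overlap in each of the other panels.

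Among named genes at unadjusted p under 0.05 with a mean of at least 1 CPM, the largest differences belonged to genes of low level or wide spread. HSD17B13, a lipid droplet enzyme, lay between 1.35 and 45.4 CPM in LF and 0.993 and 16.8 in CTRL (log2FC 1.73, SE 0.64). SERPINB7 (1.83, SE 0.77), LY6G6E (1.68, SE 0.68) and ELF5, an epithelial transcription factor (1.41, SE 0.59), had median levels of 0.746, 2.18 and 1.75 CPM in LF, and the ELF5 difference was 2.25 in study replicate 1 and 0.03 in study replicate 2. On the other side, RXFP1, the relaxin receptor, was at 0.323 to 4.19 CPM in LF (median 1.54) and 0.0578 to 26.9 in CTRL (median 5.35). CTRL1 held the lowest RXFP1 value of all 18 heifers and the other CTRL heifers lay between 1.76 and 26.9, so that a log2FC of -2.22 came with an SE of 0.67. CCKAR, the cholecystokinin A receptor (-2.79, SE 1.10), GPC5, a glypican (-2.43, SE 0.97), TRIM63, a muscle ubiquitin ligase (-2.29, SE 0.90), and KCNIP4, a potassium channel partner (-2.09, SE 0.93), had wider errors still. With the smooth muscle markers described below as a covariate, CCKAR, GPC5 and TRIM63 turned to 0.91, 0.21 and 0.40, KCNIP4 was at -0.03 and ELF5 at 0.58. RXFP1 was at -2.29 with that covariate and at -1.44 without the 5 heifers apart.

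The eicosanoid genes with a name did not move as a block. Of 16 genes of prostaglandin synthesis and breakdown 4 had a name, and of these 2 were higher and 1 lower at unadjusted p under 0.05. Their median log2FC was 0.45. The median over all tested genes was 0.01, but most of those have no name, so the 2 medians are not like for like. PTGES, the inducible prostaglandin E synthase, was at 4.95 to 25.6 CPM in LF (median 8.08) and 3.87 to 10.8 in CTRL (median 5.44), a log2FC of 0.86 (SE 0.32). PTGDS, the prostaglandin D synthase, was at 108 to 424 CPM in LF (median 192) and 88.4 to 186 in CTRL (median 143), a log2FC of 0.54 (SE 0.22) with 6 of 10 LF heifers above every CTRL heifer. PLA2G4A, the cytosolic phospholipase A2 that frees arachidonic acid, had a log2FC of 0.35 (SE 0.17). PTGIS, the prostacyclin synthase, lay lower, with 14.2 to 46.4 CPM in LF, 14.8 to 82.3 in CTRL and a log2FC of -0.80 (SE 0.37) that turned to 0.24 with the smooth muscle covariate.

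Both named prostaglandin receptors of a list of 12 were lower in LF at unadjusted p under 0.05. PTGER4, a prostaglandin E2 receptor, was at 10.8 to 27.4 CPM in LF (median 14.9) and 12.7 to 53.9 in CTRL (median 24.7), with a log2FC of -0.88 (SE 0.28) that was -0.88 and -0.85 in the study replicates and -0.56 with the smooth muscle covariate, where its unadjusted p was 0.0545. PTGFR, the prostaglandin F2 alpha receptor, spread from 0.340 to 76.5 CPM in CTRL, and its log2FC of -1.97 (SE 0.91) turned to 0.73 with the smooth muscle covariate. On the lipoxygenase side, ALOX12 had a log2FC of -0.64 (SE 0.59, 95% interval -1.88 to 0.60), and among 16 genes of that list LTA4H was the only other one with a name.

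Cytokine genes showed no common direction. IL1A, an inflammatory cytokine, was at 0.161 to 1.59 CPM in LF (median 0.724) and 0.534 to 4.97 in CTRL (median 0.899). CTRL1 alone was above 1.59, and the log2FC of -0.71 (SE 0.49, 95% interval -1.73 to 0.30) was -1.83 in the first study replicate, which holds CTRL1, and 0.51 in the second, and it was -0.03 when CTRL1 was left out. Its receptor gene IL1R1 had a log2FC of -0.65 (SE 0.35), again with CTRL1 highest at 96.8 CPM, and of -0.31 without CTRL1. The chemokine CCL25, which draws lymphocytes to mucosa, was the cytokine gene with the smallest p (log2FC 0.53, SE 0.19), and EBI3, a subunit of interleukins, had a log2FC of 0.52 (SE 0.29), or 0.28 without LF8. Of 4 named genes of Toll-like receptor and NF-kappaB signalling, of 34 listed, the kinase IRAK2 (-0.49, SE 0.22) was the 1 with an unadjusted p under 0.05, and it was at -0.28 without CTRL6. The transcription factor NFKB2 had a log2FC of -0.30 (SE 0.17), -0.08 with the smooth muscle covariate, TRAF6 one of -0.07 and TRAPPC9 one of 0.20.

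For leukocytes the named markers were few and mostly higher in LF. The 2 named neutrophil markers of 20 were PADI4, an enzyme of neutrophil extracellular traps (log2FC 1.16, SE 0.42, median 0.754 CPM in LF and 0.320 in CTRL), and NCF1, a subunit of the oxidase (0.47, SE 0.21). All 4 named macrophage and dendritic cell markers of 16 had a log2FC above 0, and 1 of them, the complement component C1QC, had an unadjusted p under 0.05 (0.36, SE 0.17). With the smooth muscle covariate C1QC was at 0.13 and the median of the 4 went from 0.31 to 0.11. Neutrophil-defining markers such as S100A8, CSF3R and CXCR2 were among those without a name and were not analysed here. As the tissue was sequenced in bulk, more cells of a type and more RNA per cell cannot be told apart in these values.

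Interferon-stimulated genes were high in a few LF heifers of 1 study replicate. The summed CPM of the 4 named ones, of 28 listed, was 909 in LF10, 672 in LF8 and 512 in LF7, between 179 and 308 in the other 7 LF heifers and between 204 and 324 in CTRL. Mx1, an antiviral GTPase, was at 572 CPM in LF10 and 232 in LF8, against 62.9 to 130 in CTRL, and at 42.0 to 125 in the remaining LF heifers, so that its log2FC of 0.74 (SE 0.43) was 0.16 without LF10. IFI6 was at 375 CPM in LF8, 366 in LF7 and 229 in LF10, against 90.3 to 163 in CTRL. The median log2FC of the 4 genes was 0.67 with all heifers, 1.06 in study replicate 2 and -0.02 in study replicate 1, and 3 of the 4 (IFIT3, IFI6 and the RNA sensor IFIH1) had an unadjusted p under 0.05. The effect was not shown to differ between study replicates, since the interaction of treatment and study replicate had 0 genes at edgeR adjusted p under 0.05 and 262 (1.76%) unadjusted. Without the 5 heifers apart on the first component, LF7 and LF8 among them, the median was 0.54 and none of the 4 had an unadjusted p under 0.05.

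Antigen presentation genes were more evenly higher between the study replicates, but not between heifers. The summed CPM of the named ones was highest in LF7 (3597), LF1 (3177) and LF8 (3033). In LF5 (1917), LF6 (1703) and LF9 (1711) it lay within the CTRL range of 1628 to 2016. All 6 named members of 22 had a log2FC above 0 in both study replicates, 4 with an unadjusted p under 0.05, and the median log2FC was 0.39. CD74, the chaperone of MHC class II, was at 499 to 764 CPM in LF (median 655) and at most 657 in CTRL (median 517), a log2FC of 0.27 (SE 0.11). PSMB8, an immunoproteasome subunit, had a log2FC of 0.41 (SE 0.18) and B2M, the light chain of MHC class I, one of 0.33 (SE 0.18). JSP.1, a class I heavy chain gene, had the largest difference (1.29, SE 0.41), with LF1 at 1107 CPM and CTRL3 at 25.6, and BoLA one of 0.73 (SE 0.33). Bovine class I genes are near-identical and vary between animals, so how reads were split between them is uncertain and these 2 values are too. The median was 0.24 without the 5 heifers apart, with all 6 above 0 and 1 of them at unadjusted p under 0.05.

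Ciliated epithelium markers had a log2FC above 0 for all 7 named members of 32, in both study replicates, with a median of 0.68 and 4 at unadjusted p under 0.05. TPPP3, a microtubule-binding protein, was at 158 to 659 CPM in LF (median 345) and 95.1 to 511 in CTRL (median 186), a log2FC of 0.74 (SE 0.32). RSPH9, a radial spoke protein of the axoneme, had a log2FC of 0.79 (SE 0.32), CAPS one of 0.66 (SE 0.31) and CCDC28B one of 0.46 (SE 0.19). With breed as a covariate, which is unevenly spread over the groups, these 3 were at 0.37, 0.27 and 0.29, and TPPP3 was at 0.66. The summed level of the 7 genes was 263 to 1023 CPM in LF and 214 to 642 in CTRL, with LF7 highest. Without the 5 heifers apart, which include LF7, all 7 were still above 0 with a median of 0.51, but 0 of the 7 had an unadjusted p under 0.05. Both named epithelial markers of 19 were higher, KRT8, a keratin of simple epithelium, by 0.58 (SE 0.21) and ESRP1, an epithelial splicing factor, by 0.30 (SE 0.12) on the log2 scale.

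Smooth muscle markers spread widely in both groups, and all 9 named members of 17 had a log2FC below 0. Only 4 of the 9 had an unadjusted p under 0.05, a share near the 44.6% of all named genes, and ACTA2 was not among them. Their median log2FC was -1.12, and it was -1.80 in study replicate 1 and -0.64 in study replicate 2. ACTA2, smooth muscle actin, was at 248 to 3167 CPM in LF (median 1442) and 460.4 to 7038 in CTRL (median 3554). MYLK, the myosin light chain kinase, had a log2FC of -1.39 (SE 0.57), CALD1, caldesmon, one of -0.93 (SE 0.30), and SYNPO2 and SYNM ones of -1.36 (SE 0.64) and -1.26 (SE 0.58). The summed level of the 9 genes was 675 to 5436 CPM in LF and 1241 to 9218 in CTRL, where CTRL2, CTRL3 and CTRL8 lay between 1241 and 1327 and the other 5 between 3898 and 9218. TAGLN, MYH11, CNN1 and DES, the other defining markers of this cell type, had no name at hand.

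Named matrix genes were lower as well. All 5 named genes of matrix remodelling, of 32, were lower (median -0.90, 4 at unadjusted p under 0.05), among them ADAMTS1, a secreted protease of proteoglycans (129 to 253 CPM in LF, 174 to 394 in CTRL, log2FC -0.58, SE 0.18), the hyaluronan receptor CD44 (-0.90, SE 0.39), CEMIP, which acts in hyaluronan breakdown (-1.79, SE 0.67), and TNC, tenascin C (-1.06, SE 0.49). CTRL1 was far above all other heifers for CD44 (516 CPM) and CEMIP (177 CPM), and without it their log2FC were -0.33 and -0.53. In study replicate 2, which does not hold CTRL1, they were -0.11 and -0.19, and the median of the 5 genes was -1.31 and -0.43 in the study replicates. All 7 named collagen genes of 25 had a log2FC below 0 in both study replicates, with a median of -0.48. Of the 7, 3 had an unadjusted p under 0.05, a share near the 44.6% of all named genes. Without the 5 heifers apart on the first component the median was -0.63, and 0 of the 7 had an unadjusted p under 0.05. COL12A1 had a log2FC of -1.18 (SE 0.39), COL4A6 one of -1.70 (SE 0.72) and COL4A2, a basement membrane chain, one of -0.47 (SE 0.19) with 8 of 10 LF heifers below every CTRL heifer. With the mean of the smooth muscle markers as a covariate, the median was -0.35 for matrix remodelling and -0.34 for collagens, and the number of tested genes at unadjusted p under 0.05 went from 839 to 266. This fit cannot show the part of smooth muscle in the matrix differences, as the covariate itself differed between LF and CTRL. That part was not tested in another way.

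The covariate moved the genes with the smallest p unequally. Among those higher in LF, the log2FC with it was 0.42 for LTA4H, 0.62 for SH3D21, 0.90 for KLK10, 0.94 for MISP and 0.65 for APOA1. Among those lower in LF, TIPARP was at -0.73 and ADAM9 at -0.57, close to their values without it. ADAMTSL4 went from -1.17 to -0.53, LDLRAD4 from -0.95 to -0.48, FGFR1 from -0.86 to -0.31, C9orf172 from -1.48 to -0.60, TMEM47 from -0.75 to -0.32, PHF21B from -1.63 to -1.02, RND3 from -0.74 to -0.48 and ZDHHC14 from -0.51 to -0.34.

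Immediate early and heat shock genes, which respond within minutes to growth factors, stress and tissue handling, were lower in LF for all 6 named members of 32. Their median log2FC was -0.69 (-0.91 and -0.44 in the study replicates). Of the 6, 3 had an unadjusted p under 0.05, a share near the 44.6% of all named genes. KLF6 was at 22.7 to 113 CPM in LF (median 82.4) and 71.8 to 254 in CTRL (median 118), a log2FC of -0.73 (SE 0.25). DUSP5, a phosphatase of ERK, had a log2FC of -0.95 (SE 0.39), the chaperone HSPH1 one of -0.62 (SE 0.26; -0.28 with the smooth muscle covariate) and FOS one of -0.64 (SE 0.37). The median of the 6 was -0.75 without the 5 heifers apart, and 5 of the 6 had an unadjusted p under 0.05. The share of all named genes at that p was not computed for this fit, so the 5 of 6 cannot be judged against it. Both named genes of the unfolded protein response, of 23, also had a log2FC below 0, DNAJC3 of -0.27 (SE 0.13) and TRIB3 of -0.75 (SE 0.37).

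**Figure D3:**
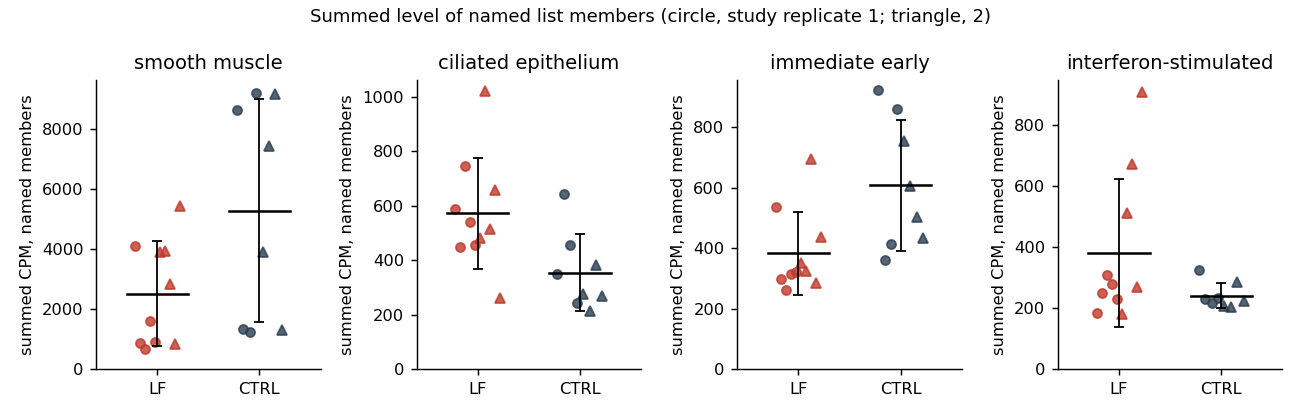
Summed CPM of the named members of the smooth muscle, ciliated epithelium, immediate early and interferon-stimulated lists in every heifer, with the mean as a line and the SD as a bar, circles for study replicate 1 and triangles for study replicate 2. LF and CTRL overlap in each panel, and LF10, LF8 and LF7 lie above all other heifers for the interferon-stimulated genes.

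Metabolic and growth genes gave smaller groups. All 3 named lipid genes of 28 were higher at unadjusted p under 0.05. Beside APOA1 these were CERS4, a ceramide synthase (16.7 to 36.3 CPM in LF, 10.5 to 23.5 in CTRL, log2FC 0.60, SE 0.20), and FABP7, a fatty acid binding protein (17.9 to 79.4 and 15.7 to 50.2 CPM, log2FC 0.74, SE 0.26). Without the 5 heifers apart, among them LF7 with the highest sum of the 3 genes (206 CPM), their median went from 0.74 to 0.47 and 2 of the 3 had an unadjusted p under 0.05, FABP7 being at 0.32. Of 5 named solute carriers of 21, the study's own choice of transporters among them, 2 were higher and 3 lower, so the list had no single direction. SLC27A3 was higher by 0.37 (SE 0.14) and SLC7A3 by 0.95 (SE 0.44). SLC7A3 had a mean of only 0.824 CPM in LF and 0.428 in CTRL, and it did not pass the filter in study replicate 1 alone. SLC7A2, a transporter of cationic amino acids (-1.30, SE 0.44), and SLC38A2 (-0.32, SE 0.11) were 2 of the lower ones. Of 4 named uterine growth and patterning factors of 33, GDF10 (1.34, SE 0.47) and INHA (0.59, SE 0.26) were higher and HAND2, a progesterone-responsive stromal factor, lower (-0.40, SE 0.18) at unadjusted p under 0.05, and SPP1, osteopontin, had a log2FC of -0.87 (SE 0.44). GDF10 was at 0.82 and INHA at 0.31 without the 5 heifers apart, and with the smooth muscle covariate HAND2 was at -0.17. IGF2, from the list of steroid and estrus genes, had a log2FC of 0.52 (SE 0.25) that was 0.33 without LF8, its highest heifer at 1003 CPM, and 0.13 without the 5 heifers apart. Of 5 named cell cycle genes of 30, TYMS (0.40, SE 0.14) and HMGB2 (0.48, SE 0.17) were higher at unadjusted p under 0.05, and the other 3 had log2FC of -0.08 to 0.39. TYMS was at 0.24 and HMGB2 at 0.36 without the 5 heifers apart, and 0 of the 5 had an unadjusted p under 0.05.

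**Figure D4:**
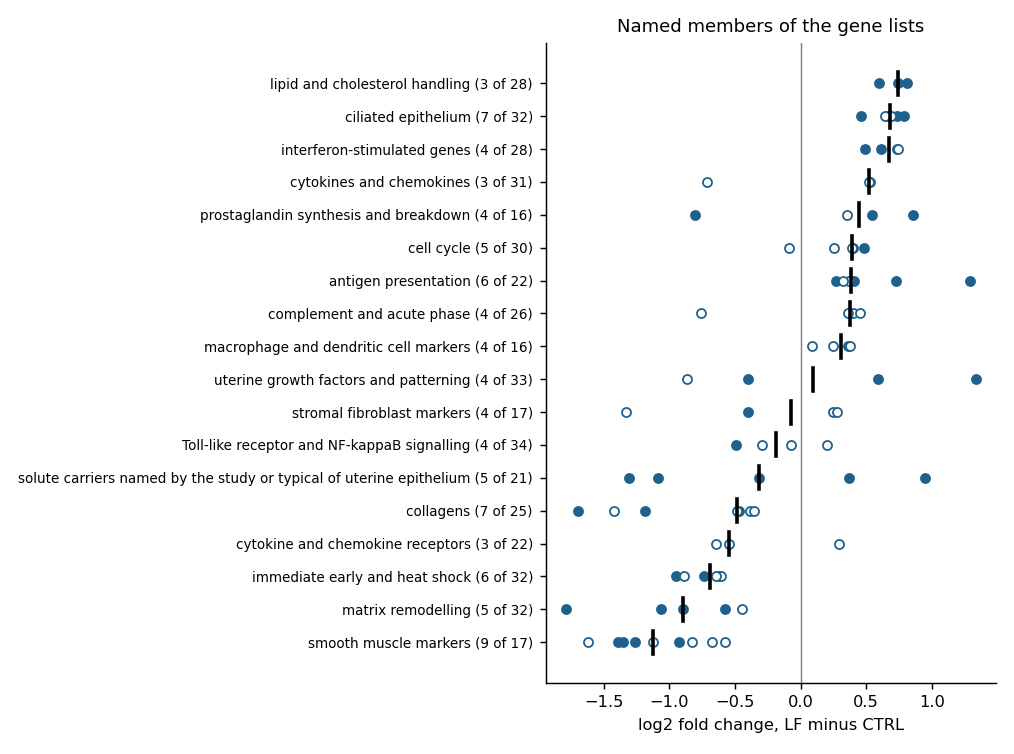
Log2 fold change, LF minus CTRL, of every named member of the lists with at least 3 named members, filled where the unadjusted edgeR p was under 0.05, with the list's median as a black bar and the number of named members of all members beside each name. Smooth muscle, matrix, immediate early and collagen members are all below 0, and lipid, cilium, interferon-stimulated and antigen presentation members all above 0.

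The study replicates, which have no heifer in common, gave a further view of the same difference. Of 14746 genes tested in both, 64.6% had a log2FC of the same sign, with Pearson's r 0.28 and Spearman's rho 0.35 across genes, which are not independent replicates. Fitted alone, study replicate 1 had 4.73% of its tested genes at unadjusted p under 0.05 and study replicate 2 had 1.57%. Of 692 such genes of study replicate 1 tested in both, 70.8% had the same sign in study replicate 2, where their median log2FC in the direction of the first was 0.21, compared with a median size of 0.88 in the first. Of 231 such genes in study replicate 2, 72.7% had the same sign in study replicate 1. These shares stand a little above the 64.6% of all genes. Exactly 20 of the 14746 genes had an unadjusted p under 0.05 and the same sign in both, which is 20 of the 692 picked in study replicate 1. Among them were LTA4H, SH3D21, KLK10, MISP, APOA1, ADAMTSL4, RXFP1, PHF21B and ADAM9. At adjusted p under 0.05 edgeR called 2 genes (0.0135%) between the study replicates themselves, with treatment in the fit and 2.31% of genes at unadjusted p under 0.05. Within study replicate 1 the LF and CTRL heifers did not overlap for 226 genes (1.51%) and within study replicate 2 for 82 (0.551%), while 1 gene kept its groups apart over both.

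**Figure D5:**
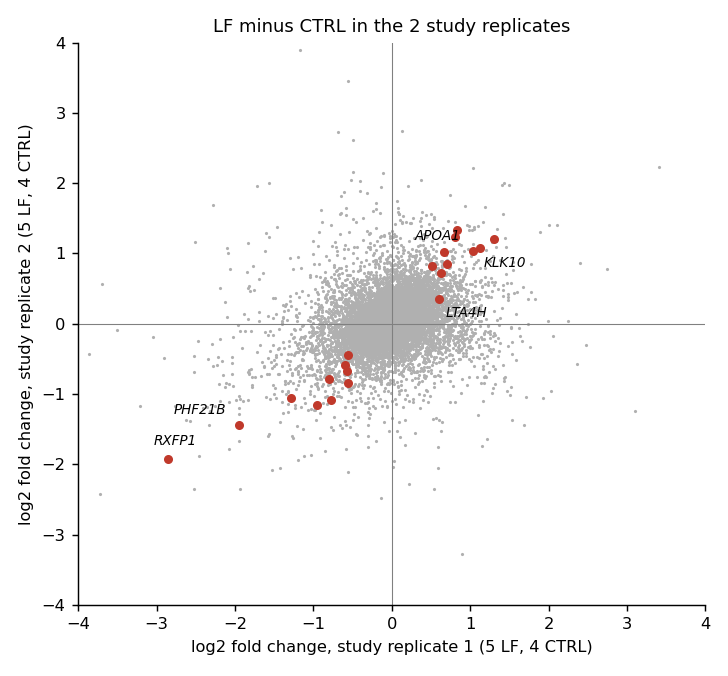
Log2 fold change, LF minus CTRL, in study replicate 1 (horizontal) and study replicate 2 (vertical) for all tested genes in grey and, in red, the 20 genes with an unadjusted p under 0.05 and the same sign in both. The red points lie along the diagonal, which their choice by sign and p in both study replicates favours. RXFP1 is at -2.86 and -1.93 and KLK10 at 1.04 and 1.03, and the grey cloud is only slightly tilted.

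Within LF, the bull was not visible as a greater likeness of the 2 heifers that received its semen. The mean correlation of their deviations from the study replicate's mean was -0.088 for the 5 same-bull pairs and 0.036 for the 20 pairs of different bulls (1-sided exact permutation p = 0.683 over 120 matchings, where the smallest possible p is 0.00833). Single bulls ranged from -0.63 for bull 2 to 0.29 for bull 5. The pairs of bulls 1, 2 and 3 each joined a heifer apart on the first component (LF1, LF7 and LF8) with 1 that was not. The likeness without these heifers was not computed. The spread among heifers was wider in LF, where the median SD of log2 CPM was 0.48 against 0.39 in CTRL and 67.8% of genes had the larger SD in LF. Without the 5 heifers apart on the first component it was 0.30 in LF and 0.32 in CTRL, with 45.7% of genes having the larger SD in LF.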

How the data were processed

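Polyadenylated RNA of 1 endometrial biopsy per heifer was sequenced with a stranded kit. After trimming, the authors mapped reads with STAR (genome ARS-UCD1.2) and deposited raw whole-number counts of uniquely mapped reads for each Ensembl gene. Versions in the submitters' processing notes are STAR 2.6.1b and Subread 1.6.3. No source used here gives the strand setting of the counting, so a gene and an antisense partner may share reads. The paper kept protein-coding genes, a step not repeated here for want of matched biotypes. Breeds are those of a supplementary file, whereas the sample labels give 1 dairy breed for every heifer. Of 24596 IDs, 19181 had a count in these heifers. The authors' table of their own fold changes and p-values was used only for gene names, and its truncated copy gave 1510 of them. 12 more came from tables of the paper.

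Counts were tested in R 4.3.3 with edgeR 4.0.16 (TMM, filterByExpr with a minimum count of 10, glmQLFit and glmQLFTest, no covariate), fitted to the LF and CTRL heifers alone, with Benjamini-Hochberg adjustment over all genes tested. DESeq2 1.42.0, the tool of the study, was the alternative. CPM are normalized by TMM, log2 CPM used a prior count of 2, and intervals of log2FC are 95%. A depth of at least 15458403 counts in every heifer means that counting error is small beside the spread between animals except for genes near 1 CPM. Both tools were tested on simulated data.

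Genes were named by rule: those called by either tool, the 10 named genes with the smallest p and the 5 with the largest fold in each direction, the members of each of 32 lists with the smallest p or highest level, and fixed eicosanoid and cytokine genes. PTGS2, IL1B, IL6, CXCL8, TNF, PGR, ESR1 and OXTR were fixed too and had no name at hand. FBXO32 was named after its values were seen. The comparison, the lists and the rule were chosen with earlier results of these data known. The lists without a named member were those for antimicrobial, endothelial, blood, sperm, seminal plasma and mitochondrial genes. Named members of the lists for T and NK cells, B and plasma cells, cytokine receptors and stroma are given in the closing section. Alternatives were other normalizations and filters, covariates for study replicate, breed and smooth muscle, counts summed per bull, and heifers left out.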

Additional observations from a re-analysis of the deposited data

Results flagged for a closer look

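In groups of 8 or 10 heifers, a highest or lowest value was noted when its distance to the next value was a large part of the group's range by Dixon's criterion. Chance alone notes about 1 in 20 groups, and here 17 of 242 were noted, all on log2 CPM. LF7 was far below the other LF heifers for IL1R1 (1.54, next 4.10), KLF6 (4.51), TIPARP (2.94), MST1R (2.11) and the mean of the cytokine receptors (2.68), and above them for the mean of the stromal markers (9.43). LF8 was above the others for FOS (7.33), NFKB2 (6.93), PLA2G4A (6.003) and EBI3 (2.42) and below them for IRAK2 (2.88). CTRL1 was above the other CTRL heifers for IL1R1 (6.60) and IL1A (2.34, next 0.34) and below them for EBI3 (-0.68). For JSP.1, LF1 was highest in LF at 10.11 and CTRL3 lowest in CTRL at 4.68. LF2 was highest for FBLN1 (10.89). LF1, LF7 and LF8 are 3 of the 5 heifers that stood apart on the first principal component.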

How the results depend on the processing

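edgeR called 0 genes at adjusted p under 0.05 under every alternative run, each heifer left out included, and its count at unadjusted p under 0.05 was 535 when breed was fitted, 266 with the smooth muscle covariate, 234 in study replicate 2 alone and 481 (without CTRL1) to 1112 (without LF10) with a heifer left out. DESeq2 called 2 genes, 3 with study replicate as a covariate, 7 without the 5 heifers apart on the first component (1364 unadjusted) and 0 to 16 with a heifer left out (720 to 1500 unadjusted), alternatives that, other than DESeq2 on all heifers, were added after seeing the data. The edgeR fit without the 5 heifers apart was also added after seeing the data. Genes whose groups did not overlap numbered 226 and 82 within study replicates 1 and 2 and 1 to 4 with a heifer left out. Between study replicates DESeq2 called 7 genes where edgeR called 2. The difference in the first component was -0.28 to 9.82 with a heifer left out, negative without LF8, and the likeness of same-bull heifers was -0.30 to 0.097, positive without bull 2. The causes were not tested.

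Of 5223 gene values recomputed for 101 genes, 5205 kept their direction. With the smooth muscle covariate the log2FC turned for CCKAR (0.91), GPC5 (0.21), TRIM63 (0.40), PTGIS (0.24), PTGFR (0.73), C7 (0.35), CEMIP (0.049), COL4A6 (0.31), SFRP2 (0.60), ACTA2 (0.28), MYLK (0.070) and SYNM (0.14), the last of which, with ACTA2 and MYLK, enter the covariate. IL1A turned in study replicate 2 (0.51), and IFI6 (-0.027), Mx1 (-0.028) and IFIH1 (-0.0066) in study replicate 1. Mx1 also turned in DESeq2 without LF8 (-0.11, up to 0.85 without another heifer) and without the 5 heifers apart (-0.082).

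Replicate numbers in the labels mark no animal or bull shared by LF and CTRL, though all same-numbered pairs except number 5 fall in the same study replicate. Same-numbered heifers deviated together in 4 of 8 pairs (correlation -0.44 to 0.34). With the replicate number as a block, in a fit without LF9 and LF10, edgeR called 0 genes, with 821 at unadjusted p under 0.05. Of 16 heifers, 1 correlated best with its own number. The planned fit on protein-coding genes was not run, as no biotypes were matched.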

Other observations

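Named genes of the lists not described above were few. The 2 named T and NK cell markers of 17, PRF1 and CD4, had log2FC of 0.41 and 0.44, and the 2 named B and plasma cell markers of 8, MZB1 and CR2, had 0.68 and 0.71, none with an unadjusted p under 0.05. Of complement genes, C1S (0.40, SE 0.20) and C1R (0.36, SE 0.19), the proteases of the classical pathway, had log2FC above 0 and C7, a part of the membrane attack complex, one of -0.76 (SE 0.44). Of 4 named stromal markers of 17, VIM (0.28) and FBLN1 (0.25) had log2FC above 0 and SFRP2 (-1.33) and HAND2 (-0.40) below. IL2RG (0.29) and IL13RA1 (-0.54) were the named cytokine receptors beside IL1R1. IGFBP4, which binds insulin-like growth factors, had a log2FC of 0.33 (SE 0.16).

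Larger differences were more often lower in LF. Of 247 tested genes with a log2FC beyond 1 in size, 168 were lower and 79 higher, whereas 51.8% of all tested genes had a log2FC above 0. Only 84 of the 168 and 53 of the 79 had an unadjusted edgeR p under 0.05.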
